A study of Mus musculus with 7 samples.

Results

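The insulin-like growth factor (IGF) genes examined here were Igf1 and Igf2, which code for the ligands, Igf1r, which codes for their signalling receptor, and Igfbp2 to Igfbp7, which code for secreted proteins that bind the ligands. They were taken by name, as 9 of the 55401 genes counted in lungs with bleomycin-induced fibrosis. Mature IGF1 and IGF2 activate the receptor tyrosine kinase IGF1R, which signals through insulin receptor substrates to PI3K, AKT and mTOR. Most of the ligand outside cells is held by IGF binding proteins, which carry it, keep it from the receptor or hold it in the matrix, and proteases that cut these proteins set it free. In the injured lung, macrophages and fibroblasts are known sources of IGF1, a growth and survival signal for fibroblasts.

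RNA was sequenced from lung of male C57BL/6 mice, 6 to 8 weeks old, all of them given bleomycin, which damages DNA and causes lung injury followed by fibrosis. The BLM group had 4 mice and the BLM+HBO group had 3. Mice of the BLM+HBO group breathed hyperbaric oxygen (HBO, oxygen under raised pressure) at 2.5 ATA (atmospheres absolute) for 90 min a day in 14 daily sessions from day 7, and all lungs were collected on day 21. Whether the BLM mice spent the same time in the chamber without pressurized oxygen, as the labels have it, or were left untreated, as the study's methods have it, was not settled here. Lungs without bleomycin were not analysed here, so the comparison gives the difference between HBO and no HBO in bleomycin-injured lung at a single time. Each library was made from whole lobe tissue, in which fewer cells of a type and less RNA per cell cannot be told apart.

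The libraries held between 18157161 and 26365969 counted reads. Markers of lung tissue were present in each mouse, with 8 lung genes such as Sftpc and Ager summing to between 15280 and 46620 CPM (the reads of a gene relative to all reads of its library, scaled between libraries by TMM). The libraries differed within each group by more than sampling noise, with a chi-square per gene of at least 22.1 for each pair of BLM mice and at least 39.4 for each pair of BLM+HBO mice. BLM+HBO 2 stood apart from the other mice of its group, since its smallest chi-square per gene, 13.0, was against BLM 4. Results that moved with this mouse are given with and without it. It was the treated mouse nearest to the BLM mice, so leaving it out tends to widen group differences. The values without it are therefore no added support for a difference.

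Igf1 was lower in the BLM+HBO mice on average, together with Igfbp3, Igfbp4 and Igfbp7, while the receptor Igf1r and the binding protein genes Igfbp2, Igfbp5 and Igfbp6 did not pass the test. Of the 8 members with enough reads to be tested, 2 passed the thresholds of the study's methods, and both (Igf1 and Igfbp3) were lower. These thresholds ask for a change of more than 1.5-fold and an unadjusted P below 0.05. Over all 17465 tested genes, 6.29% passed these thresholds, 2.89% as lower and 3.40% as higher. DESeq2 passed the same number of members, beside 6.72% of the genes it tested. By limma, 3 members passed, all lower, beside 6.68% of all tested genes, with Igfbp4 (log2 fold change -0.64, unadjusted P 0.0213) as the addition. At unadjusted P alone, 4 members passed, all lower, where 10.7% of all tested genes did, 5.54% as lower and 5.11% as higher. No member had an adjusted P below 0.05 by edgeR's quasi-likelihood test, as for 0% of all tested genes. None had by limma, which gave no call among all genes either, or by DESeq2, which called 0.779% of the genes it gave an adjusted P. Both tools also gave 4 members at unadjusted P below 0.05. The log2 fold changes were negative in 6 and positive in 2 of the 8 members, with a median of -0.31 beside 0.0071 for all tested genes. Since the members were few and chosen by name, these counts describe the members and are no test of the family.

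**Figure D1:**
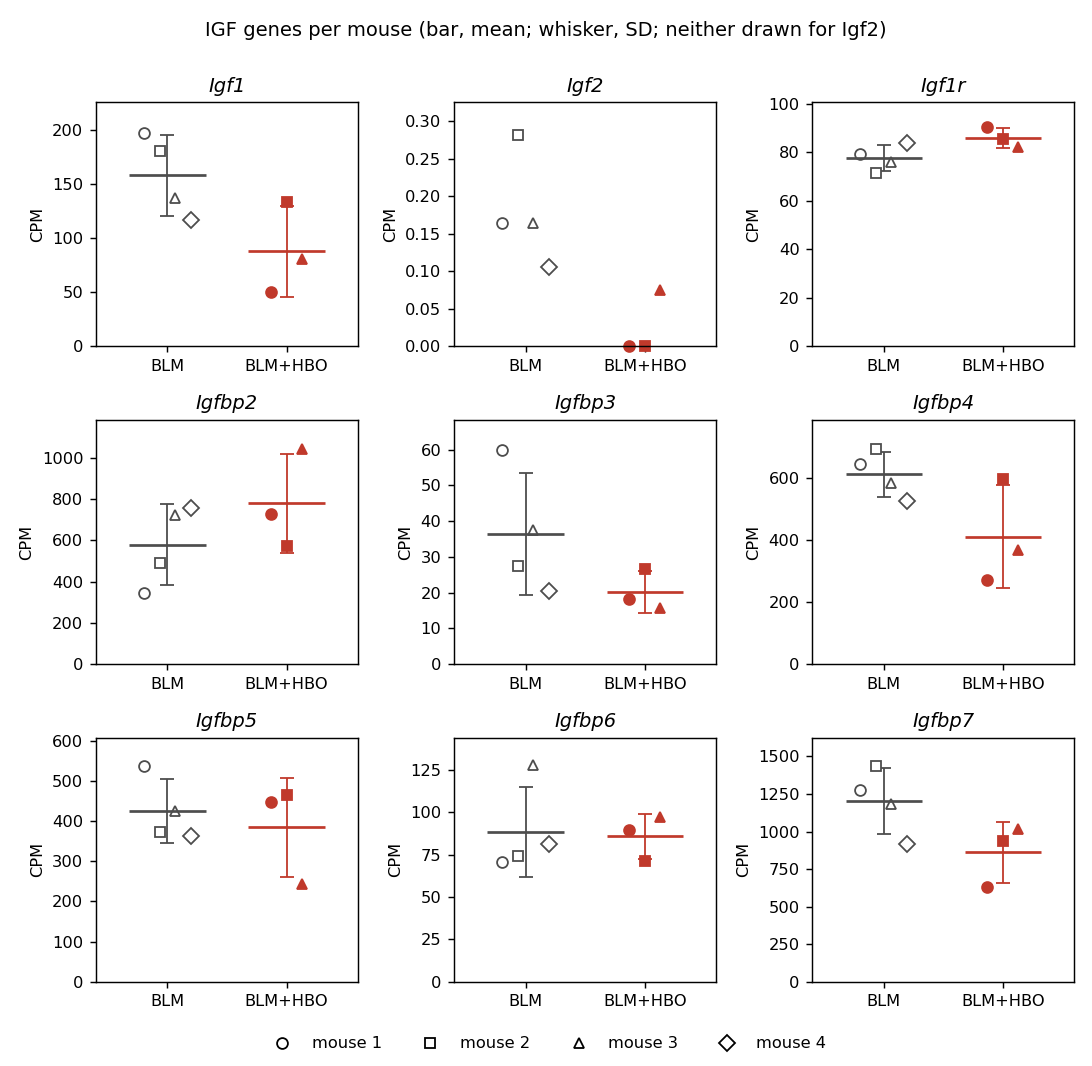
CPM (vertical axis, from 0, a scale of its own in each panel) of the 9 IGF genes in the 4 BLM mice (open grey symbols) and the 3 BLM+HBO mice (filled red symbols), with the group mean as a bar and the SD as a whisker, neither of which is drawn for Igf2. Igf1 and Igfbp4 were lowest in BLM+HBO 1 and BLM+HBO 3, while BLM+HBO 2 lay within the range of the BLM mice for both.

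The stretches around the transcription start sites of 5 members are printed here because HBO changes the oxygen supply, and the hypoxia-inducible factors (HIFs), which respond to oxygen, bind a short core motif. They are the 4 members with an unadjusted P below 0.05 and Igfbp2, the tested member with the largest positive fold change. Each runs from 250 bases before to 50 bases after a RefSeq start site on GRCm38.p6, 5′ to 3′ along the gene's strand, and capitals mark the letters ACGTG or their reverse complement CACGT, searched on both strands. The Igf1 window lies at chr10:87860861-87861160 on the plus strand, around a start site 2846 bases inside the annotated gene, so the gene's first start is not in it. The windows of Igfbp3 (chr11:7213874-7214173, minus strand) and Igfbp4 (chr11:99040994-99041293, plus strand) surround the start of each gene, those of Igfbp7 (chr5:77407996-77408295, minus strand) and Igfbp2 (chr1:72824230-72824529, plus strand) a site within 4 and 23 bases of it. They follow in that order.
Igf1: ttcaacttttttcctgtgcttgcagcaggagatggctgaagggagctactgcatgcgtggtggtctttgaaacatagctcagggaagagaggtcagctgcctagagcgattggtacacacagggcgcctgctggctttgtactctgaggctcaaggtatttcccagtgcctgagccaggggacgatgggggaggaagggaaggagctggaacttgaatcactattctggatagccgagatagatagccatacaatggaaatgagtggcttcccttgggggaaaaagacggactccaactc
Igfbp3: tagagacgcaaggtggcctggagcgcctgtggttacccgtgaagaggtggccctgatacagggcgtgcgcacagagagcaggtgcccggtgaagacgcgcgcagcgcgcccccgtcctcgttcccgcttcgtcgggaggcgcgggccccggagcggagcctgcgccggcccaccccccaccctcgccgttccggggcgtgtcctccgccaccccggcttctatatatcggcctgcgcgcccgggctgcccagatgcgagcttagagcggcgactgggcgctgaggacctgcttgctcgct
Igfbp4: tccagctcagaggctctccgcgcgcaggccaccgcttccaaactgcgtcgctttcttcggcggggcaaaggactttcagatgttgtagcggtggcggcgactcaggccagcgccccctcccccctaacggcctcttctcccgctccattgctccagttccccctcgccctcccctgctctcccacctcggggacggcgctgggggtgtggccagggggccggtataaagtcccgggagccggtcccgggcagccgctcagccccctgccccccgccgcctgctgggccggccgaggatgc
Igfbp7: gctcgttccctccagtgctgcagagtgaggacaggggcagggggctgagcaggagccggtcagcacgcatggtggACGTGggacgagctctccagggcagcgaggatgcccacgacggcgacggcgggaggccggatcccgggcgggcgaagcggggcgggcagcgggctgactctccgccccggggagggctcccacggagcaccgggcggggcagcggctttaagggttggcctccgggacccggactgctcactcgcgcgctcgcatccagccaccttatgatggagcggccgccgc
Igfbp2: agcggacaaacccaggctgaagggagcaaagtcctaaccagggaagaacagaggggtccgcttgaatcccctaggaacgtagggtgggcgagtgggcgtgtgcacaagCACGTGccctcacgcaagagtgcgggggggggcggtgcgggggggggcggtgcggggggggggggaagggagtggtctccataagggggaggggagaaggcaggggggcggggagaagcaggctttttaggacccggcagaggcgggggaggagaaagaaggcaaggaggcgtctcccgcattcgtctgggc

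The letters were present in the printed windows of Igfbp7 and Igfbp2 and not in those of Igf1, Igfbp3 and Igfbp4. Among the windows not printed, 1 of the 4 of Igf2 held them, and the second window of Igfbp2 and those of Igf1r, Igfbp5 and Igfbp6 did not. In Igfbp2 the match is the palindrome CACGTG, which counts as a match on each strand. Of 32851 RefSeq windows of this length, 19.6% held these letters. Igfbp2 and Igfbp7 therefore share these letters but not the sign of their fold change, which was positive for Igfbp2 and negative for Igfbp7. Another form of the core, GCGTG, was not searched, and it occurs in the printed windows of Igf1 and Igfbp3, among others. A window without a match is therefore not a window without the core. The letters TATAAA, searched on both strands, were in the windows of Igfbp4 and Igfbp6 and in 13.6% of all windows. Neither the strand nor the distance to the start site was limited, so these matches are not called TATA boxes. Other TATA-like letters were not searched. A match is a run of letters and was not tested as a binding site.

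Igf1, on chromosome 10 (87858265 to 87937042, plus strand, GRCm38), is the ligand gene with reads in number in these lungs. It was measured at 197 CPM in BLM 1, 181 in BLM 2, 137 in BLM 3 and 117 in BLM 4. In the HBO-treated mice it was at 49.8 CPM in BLM+HBO 1, 133 in BLM+HBO 2 and 80.9 in BLM+HBO 3. Thus 2 of the 3 treated mice lay below all BLM mice, and BLM+HBO 2 lay above BLM 4 and close to BLM 3, so the groups overlapped. BLM mice had a mean of 158 ± 37.2 CPM (SD, n = 4), and treated mice had 87.9 ± 42.0 CPM (SD, n = 3). The log2 fold change was -0.85 ± 0.30 (SE; 95% confidence interval -1.53 to -0.16), a level 0.556 times that of BLM, with an unadjusted P of 0.0202 and an adjusted P of 0.425 by edgeR.

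This difference rested on several mice. Leaving out 1 mouse at a time gave log2 fold changes between -1.27 and -0.57, all negative. The unadjusted P was above 0.05 when BLM 1 (0.0518), BLM+HBO 1 (0.0561) or BLM+HBO 3 (0.0619) was left out. Without BLM+HBO 2, the log2 fold change of Igf1 was -1.27 and the adjusted P was 0.04997, just under the limit of 0.05. This fit left out the treated mouse nearest to the BLM mice, and 1.49% of all tested genes passed at adjusted P in it.

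The other ligand gene, Igf2, is an imprinted gene that is highly active in the fetus and is silenced in most mouse tissues after birth. It lies on chromosome 7 (142650766 to 142666816, minus strand) and had 3, 5, 3 and 2 reads in BLM 1 to 4, and 0, 0 and 2 reads in BLM+HBO 1 to 3. Its CPM did not overlap between the groups, as for 8.77% of the tested genes, but it was too low to be tested. The 0 reads of BLM+HBO 1 and BLM+HBO 2 allow levels of up to 0.165 and 0.145 CPM, which is near the levels of the BLM mice. Summed over mice, 13 reads of 74341690 stood against 2 of 65155521, a ratio of 0.176 with an exact 95% interval of 0.0192 to 0.775 that covers counting error only. In addition, 64.5% of its exon bases (3694 of 5723) are shared with Gm49394 on the same strand and Igf2os on the opposite strand. Reads in shared bases were left out of the counting at its default settings, so the level of Igf2 is uncertain.

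The receptor gene Igf1r (chromosome 7, 67952827 to 68233668, plus strand) varied least among the tested members. It was at 79.2, 71.5, 76.2 and 83.9 CPM in BLM 1 to 4 and at 90.6, 85.3 and 82.2 CPM in BLM+HBO 1 to 3. The groups overlapped only through BLM 4, which lay above BLM+HBO 3. Igf1r averaged 77.7 ± 5.21 CPM (SD, n = 4) without HBO and 86.0 ± 4.24 CPM (SD, n = 3) with it, and the log2 fold change was 0.15 ± 0.097 (SE; 95% confidence interval -0.072 to 0.36). This did not pass the test (unadjusted P 0.166, adjusted P 0.615 by edgeR), and the interval leaves out a change by 1.5-fold in either direction. Insr, the gene of the insulin receptor, was close to Igf1r in level, with 0.954 ± 0.0544 TPM of Igf1r per TPM of Insr in BLM (SD, n = 4) and 0.958 ± 0.0551 in BLM+HBO (SD, n = 3). TPM is a share of all transcripts, with each count divided by gene length, and so allows a rough comparison of levels between genes. The length covers the exons of all annotated transcripts of a gene, for instance 9904 bases from 8 transcripts for Igf1 and 1112 from 1 for Igfbp6. It can exceed that of the transcripts present, which would make the TPM of such a gene too low.

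Among the binding protein genes, Igfbp3 (chromosome 11, 7206086 to 7213923, minus strand) codes for the main carrier of IGF in the blood. It was at 59.8 CPM in BLM 1, 27.4 in BLM 2, 37.6 in BLM 3 and 20.5 in BLM 4. In BLM+HBO 1 to 3 it was at 18.2, 26.6 and 15.6 CPM. BLM 1 was far above all other mice, and BLM+HBO 2 lay between BLM 2 and BLM 4. Its log2 fold change was -0.85 ± 0.34 (SE; 95% confidence interval -1.61 to -0.090), with an unadjusted P of 0.0320 and an adjusted P of 0.442 by edgeR. Without BLM 1 the log2 fold change shrank to -0.50 and the unadjusted P was 0.0888. Leaving out BLM 3 (0.0602), BLM+HBO 1 (0.0845) or BLM+HBO 3 (0.107) also took the unadjusted P above 0.05.

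Igfbp4 (chromosome 11, 99041244 to 99054392, plus strand) codes for a binding protein that mostly inhibits IGF action and that is cut by the protease PAPP-A. It was at 644, 692, 583 and 524 CPM in BLM 1 to 4 and at 269.9, 594 and 365 CPM in BLM+HBO 1 to 3. As for Igf1, BLM+HBO 1 and BLM+HBO 3 were below all BLM mice while BLM+HBO 2 was within their range. A log2 fold change of -0.58 ± 0.24 (SE; 95% confidence interval -1.12 to -0.036) was found, a level 0.671 times that of BLM, which is just short of the 1.5-fold limit. The unadjusted P was 0.0390 and the adjusted P 0.455 by edgeR. Without BLM+HBO 2, the treated mouse nearest to the BLM mice, the log2 fold change of Igfbp4 was -0.94 and the adjusted P was 0.0424. In that fit 1.49% of all tested genes had an adjusted P below 0.05. The unadjusted P was above 0.05 without any 1 of BLM 1 (0.0723), BLM 2 (0.0880), BLM 3 (0.0584), BLM+HBO 1 (0.1296) or BLM+HBO 3 (0.119), and without BLM+HBO 1 the log2 fold change was -0.35.

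Igfbp7 (chromosome 5, 77349240 to 77408041, minus strand) codes for a secreted matrix and vessel wall protein that binds IGFs only weakly, and per length it was the highest of the members in each mouse. Its level was 1275, 1438, 1181 and 918 CPM in BLM 1 to 4, and 633, 935 and 1015 CPM in BLM+HBO 1 to 3. BLM 4 lay among the treated mice, and the other 3 BLM mice lay above all of them. This gave a log2 fold change of -0.48 ± 0.20 (SE; 95% confidence interval -0.94 to -0.024), with an unadjusted P of 0.0412 and an adjusted P of 0.458 by edgeR. It was negative without any 1 mouse, between -0.62 and -0.30, with an unadjusted P above 0.05 without BLM 1 (0.0792), BLM 2 (0.110), BLM 3 (0.0661) or BLM+HBO 1 (0.145). Of its exon bases, 7.03% are shared with Polr2b on the opposite strand.

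Igfbp2 (chromosome 1, 72824503 to 72852474, plus strand), known in the lung as a gene of mature alveolar type 1 (AT1) cells, had the largest positive fold change of the members. It was at 344 CPM in BLM 1, 492 in BLM 2, 724 in BLM 3 and 755 in BLM 4. In BLM+HBO 1 to 3 it was at 728, 571 and 1042 CPM. Only BLM+HBO 3 was above all BLM mice, and the BLM mice themselves spread from 344 to 755 CPM. The log2 fold change of 0.43 ± 0.29 (SE; 95% confidence interval -0.21 to 1.07) did not pass the test (unadjusted P 0.166, adjusted P 0.615 by edgeR). Without BLM+HBO 3 it was 0.16, and without BLM+HBO 2 it was 0.61.

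Igfbp5 is the neighbour of Igfbp2 on chromosome 1 (72857932 to 72874884, minus strand), with 5457 bases between the ends of both genes, and codes for a binding protein that attaches to extracellular matrix. Its level was 539, 374, 426 and 362 CPM in BLM 1 to 4 and 447, 464 and 242 CPM in BLM+HBO 1 to 3. Only BLM+HBO 3, where Igfbp2 was highest, was below all BLM mice. Igfbp5 had a log2 fold change of -0.14 ± 0.23 (SE; 95% confidence interval -0.66 to 0.38), with an unadjusted P of 0.548 and an adjusted P of 0.856 by edgeR. Its sign turned without BLM+HBO 3 (0.097).

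Igfbp6 (chromosome 15, 102144362 to 102149511, plus strand) codes for a binding protein that prefers IGF2. It was at 70.5, 74.4, 128 and 81.5 CPM in BLM 1 to 4 and at 89.4, 70.9 and 97.0 CPM in BLM+HBO 1 to 3. All treated mice lay inside the range of the BLM mice. Igfbp6 had a log2 fold change of -0.045 ± 0.21 (SE; 95% confidence interval -0.51 to 0.42), with an unadjusted P of 0.835 and an adjusted P of 0.956 by edgeR. Its sign turned without BLM 3 (0.19) or without BLM+HBO 2 (0.074).

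**Figure D2:**
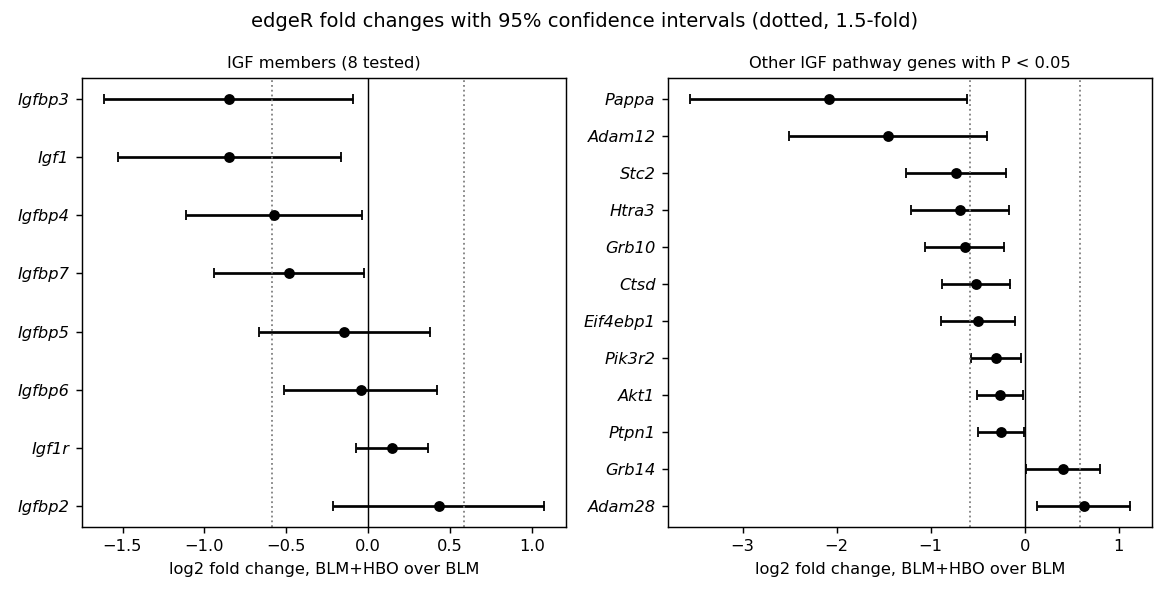
The log2 fold change of BLM+HBO over BLM (horizontal axis) with its 95% confidence interval by edgeR, for the 8 tested IGF members (left) and for the 12 other IGF pathway genes with an unadjusted P below 0.05 (right), with 1.5-fold as dotted lines. The intervals of Igfbp3, Igf1, Igfbp4 and Igfbp7 lie below 0, and that of Igf1r lies within 1.5-fold in both directions.

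Leaving out each of the 7 mice in turn showed how far the members' counts depended on single mice. Between 0 and 4 members passed both thresholds, with 0 when BLM 1 or BLM+HBO 1 was left out, 1 when it was BLM 3 or BLM+HBO 3, and 4 when it was BLM 4. At unadjusted P below 0.05 the count was again between 0 and 4, with 0 for BLM 1 or BLM+HBO 1, 1 for BLM 3 or BLM+HBO 3 and 2 for BLM 2. The share of all tested genes at this limit was 6.81% without BLM 1, 7.05% without BLM 2, 12% without BLM 3 and 11.1% without BLM 4. It was 5.7% without BLM+HBO 1, 15.9% without BLM+HBO 2 and 7.14% without BLM+HBO 3, so the background moved as well. The 2 did not always move together. Without BLM 3 the members' count fell to 1, while the share of all tested genes was above the 10.7% of the fit with all mice. Without BLM+HBO 2, 3 members passed both thresholds and 2 (Igf1 and Igfbp4) passed at adjusted P, where 10.7% and 1.49% of all genes tested on those 6 mice did. In the fits without another mouse, the share of all tested genes past both thresholds moved too, from 3.70% without BLM+HBO 1 and 4.09% without BLM 1 to 7.44% without BLM 3. Without BLM 4 this share was 7.08%.

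**Figure D3:**
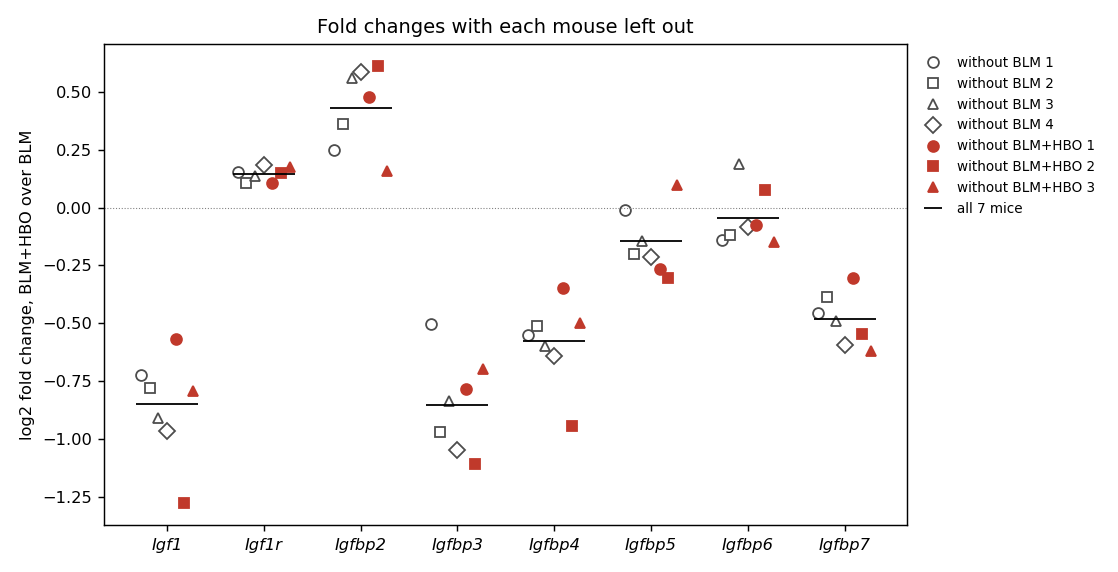
The log2 fold change of BLM+HBO over BLM (vertical axis) of the 8 tested members with all 7 mice (short black lines) and with each mouse left out (open grey symbols for BLM mice, filled red symbols for BLM+HBO mice). Igf1, Igfbp3, Igfbp4 and Igfbp7 stayed below 0 and Igf1r and Igfbp2 above 0 in each of the 7 fits, while Igfbp5 and Igfbp6 crossed it.

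Per length, the members covered a wide range of levels in these lungs. Igfbp7 had the highest TPM with a mean of 2648 (1572 to 3505 over the 7 mice), followed by Igfbp2 with 1087 (590 to 1660), and these ranges overlapped. Among all tested genes they were the 23rd and the 71st by TPM. Igfbp4 with 361 TPM (184 to 461), Igfbp6 with 237 (197 to 333) and Igfbp5 with 207 (119 to 284) came next, with ranges that overlapped each other and not that of Igfbp2. Igf1 with 39.4 TPM (15.1 to 63.1), Igfbp3 with 28.6 (14.7 to 60.5) and Igf1r with 14.7 (12.6 to 16.2) formed a lower group whose neighbours overlapped. Igf2 was last, at 0.0595 TPM (0 to 0.145).

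**Figure D4:**
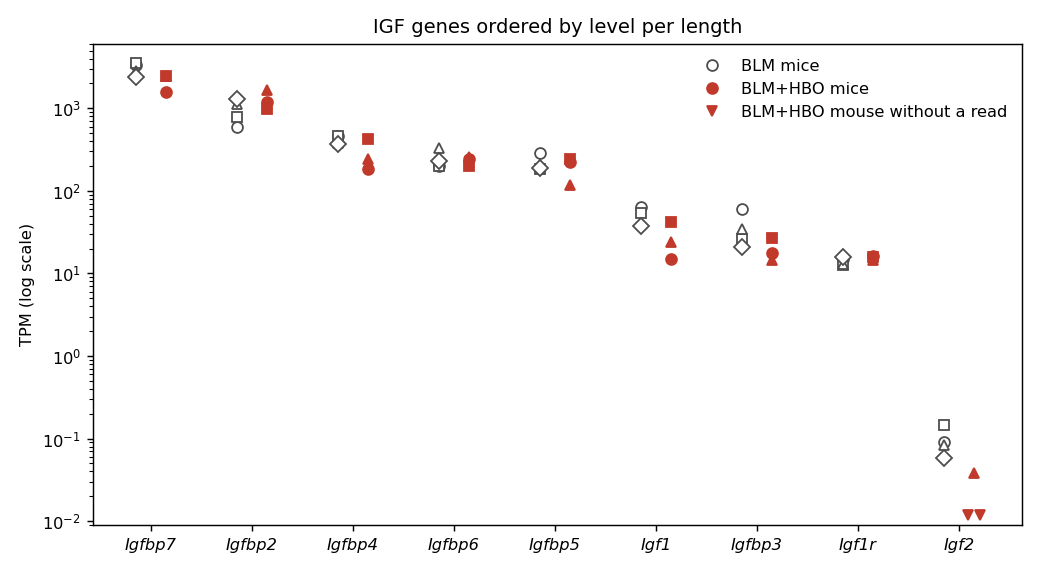
TPM (vertical axis, log scale) of the 9 IGF genes in order of their mean over 7 mice, with BLM mice as open grey symbols, BLM+HBO mice as filled red symbols and 2 triangles pointing down at the lower edge for the 2 BLM+HBO mice without an Igf2 read. Igfbp7 and Igfbp2 lie above the other binding protein genes, and Igf2 lies far below the rest.

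The sum of the 6 binding protein genes in TPM exceeded that of the ligand genes in each mouse. The binding protein to ligand ratio of TPM was 78.1, 95.7, 122 and 120 in BLM 1 to 4 and 226, 102 and 198 in BLM+HBO 1 to 3. It was highest in BLM+HBO 1 and BLM+HBO 3, and in BLM+HBO 2 it lay within the range of the BLM mice. Igf1 made up nearly all of the ligand sum (24.02 of 24.05 TPM in BLM+HBO 3), so a low Igf1 by itself raises this ratio. With the weak binder Igfbp7 left out, the ratio was 25.3, 30.7, 52.0 and 56.3 in BLM and 122, 44.2 and 95.4 in BLM+HBO, with the same mice on top. Within the binding protein transcripts, Igfbp7 made up 61.6 ± 7.39% in BLM (SD, n = 4) and 51.5 ± 5.35% in BLM+HBO (SD, n = 3), and Igfbp2 made up 19.7 ± 7.57% and 30.7 ± 6.99%. The ranges of both shares overlapped between the groups. These ratios are values of transcripts, not of proteins, and their size depends on the gene lengths used. They were not tested, since they combine members.

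The other genes of the IGF pathway were described by 5 lists that together hold 64 genes, of which 59 were tested. Of these, 6 passed both thresholds, 5 as lower and 1 as higher, and 12 had an unadjusted P below 0.05, 10 lower and 2 higher. None had an adjusted P below 0.05 by edgeR, DESeq2 or limma, where DESeq2 gave 13 and limma 12 at unadjusted P. Their median log2 fold change was -0.050. The shares of all tested genes given above are the background for these counts.

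The list of binding protein proteases and their inhibitors held 5 of the 6 genes past both thresholds, among 11 tested. Pappa, which codes for the protease PAPP-A that cuts IGFBP4, was at 30.6, 11.1, 7.41 and 4.90 CPM in BLM 1 to 4 and at 1.54, 5.46 and 2.51 CPM in BLM+HBO 1 to 3. BLM 1 was the highest by far, and BLM+HBO 2 lay just above BLM 4. The log2 fold change of Pappa was -2.09 ± 0.66 (SE), with an unadjusted P of 0.0104 and an adjusted P of 0.423 by edgeR, and its unadjusted P stayed below 0.05 in each of the 7 fits that left out a mouse (up to 0.0382), with a log2 fold change of -1.30 without BLM 1. Stc2, which codes for an inhibitor of PAPP-A, was at 14.0, 11.7, 11.4 and 11.1 CPM in BLM and at 5.70, 10.2 and 5.85 CPM in BLM+HBO. Its groups did not overlap, and its log2 fold change was -0.73 ± 0.24 (SE; unadjusted P 0.0123, adjusted P 0.423 by edgeR). Thus the gene of the protease and that of its inhibitor were both lower in the BLM+HBO mice. Stc1, the gene of the related inhibitor, had a log2 fold change of -0.021 (unadjusted P 0.922).

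Of the other proteases, Adam12, which codes for a membrane protease that cuts IGFBP3 and IGFBP5, had a log2 fold change of -1.45 ± 0.47 (SE; unadjusted P 0.0119), and of -0.93 without BLM 1. Htra3, a secreted serine protease gene, was at -0.69 ± 0.23 (SE; unadjusted P 0.0149), and Ctsd, the gene of the lysosomal protease cathepsin D, at -0.52 ± 0.16 (SE; unadjusted P 0.0104), short of the fold limit. Adam28 was higher, at 0.63 ± 0.22 (SE; unadjusted P 0.0184), and Pappa2, Htra1, Adamts1 and Prss23 lay between 0.016 and 0.20 without passing the test. Without BLM+HBO 2, the treated mouse nearest to the BLM mice, the log2 fold change of Stc2 was -1.06 and its adjusted P was 0.0450. In that fit 1.49% of all tested genes had an adjusted P below 0.05. The unadjusted P of Stc2 was above 0.05 without BLM+HBO 3 (0.0515), that of Htra3 without BLM+HBO 1 (0.0571), and that of Adam28 without BLM+HBO 1 or BLM+HBO 3 (up to 0.0771). Leaving out BLM+HBO 1 left 2 of the 64 pathway genes past both thresholds, in a fit where 3.7% of all tested genes passed.

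Among 31 genes for receptor substrates and the PI3K, AKT and mTOR steps, 1 passed both thresholds and 6 had an unadjusted P below 0.05. Grb10, an imprinted gene whose protein binds and restrains the insulin and IGF1 receptors, was at 166, 134, 113 and 113 CPM in BLM 1 to 4 and at 63.9, 101 and 88.4 CPM in BLM+HBO 1 to 3. All treated mice lay below all BLM mice, and the log2 fold change was -0.64 ± 0.19 (SE; unadjusted P 0.00732, adjusted P 0.423 by edgeR). Its relative Grb14 had a positive log2 fold change of 0.41 ± 0.17 (SE; unadjusted P 0.0420). Eif4ebp1, the gene of a translation repressor controlled by mTOR, was at -0.50 ± 0.18 (SE; unadjusted P 0.0198), and Pik3r2, Akt1 and Ptpn1 were at -0.31, -0.27 and -0.25 (unadjusted P between 0.0266 and 0.0442). The receptor substrate genes Irs1 and Irs2 were at 0.38 and -0.20 and did not pass the test (unadjusted P 0.297 and 0.134). Of these 6 genes, Grb10 alone kept an unadjusted P below 0.05 in each fit that left out a mouse.

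No gene passed at unadjusted P below 0.05 among 6 tested genes of other receptors and carriers, 7 of the growth hormone axis and 4 of the IGF2 locus and IGF2 mRNA binding. Lrp1, whose product is a scavenger receptor that also takes up IGFBP3, came closest, with a log2 fold change of -0.56 ± 0.25 (SE) and an unadjusted P of 0.0516. Without BLM+HBO 2, Lrp1 was at -0.89 (unadjusted P 0.00235, adjusted P 0.0788 by edgeR) and without BLM 3 at -0.64 (unadjusted P 0.0450), while without BLM+HBO 1 it was at -0.30 (unadjusted P 0.155). The growth hormone receptor gene Ghr and its target Socs2, a feedback inhibitor, were at -0.086 and -0.050. Igf2r, the gene of the receptor that clears IGF2, was at -0.090, and H19, the imprinted RNA beside Igf2, was at -0.76 ± 0.42 (SE; unadjusted P 0.102). Igfbp1, a liver binding protein gene, had 0 reads in all 7 mice.

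Over the 7 mice, the log2 CPM of Igf1 was most like that of 5 genes among 10710 protein-coding genes with a mean of at least 10 CPM. These were P4ha3 (Pearson r 0.997, Spearman rho 1), Plod1 (0.996 and 0.964), Lox (0.996 and 1), Sparc (0.993 and 0.929) and C1qtnf6 (0.992 and 0.964). P4ha3 and Plod1 code for enzymes that hydroxylate collagen, Lox for an enzyme that crosslinks it and Sparc for a matrix protein. P4ha3 was at 36.8, 31.0, 21.5 and 17.1 CPM in BLM 1 to 4 and at 3.35, 20.1 and 8.81 CPM in BLM+HBO 1 to 3, which is the order of the mice for Igf1. The likeness is a description over 7 mice that share a group difference, and the genes were picked from many.

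**Figure D5:**
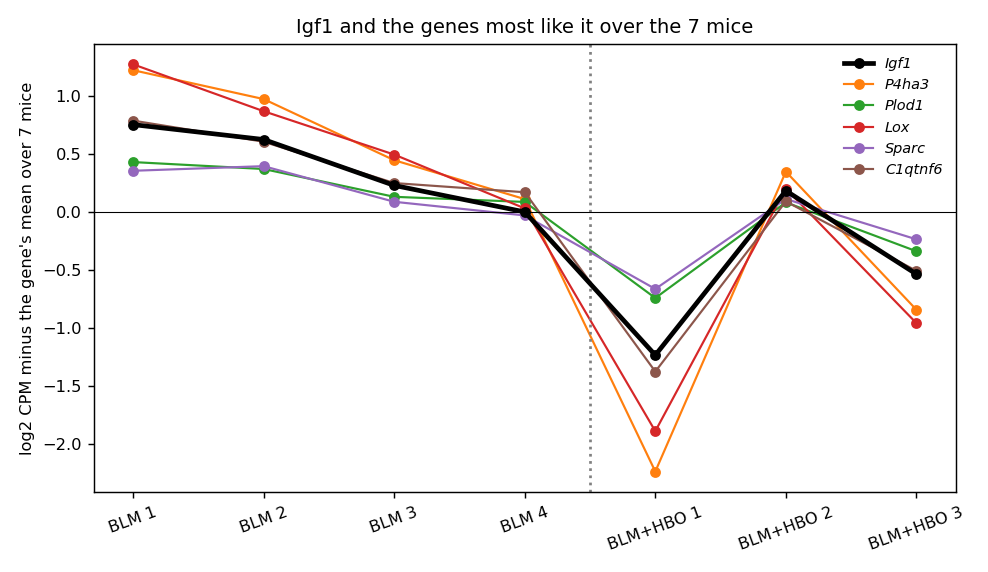
Log2 CPM minus the gene's own mean over the 7 mice (vertical axis) for Igf1 (thick black line) and the 5 genes most like it, by mouse, with a dotted line between the groups. All 6 genes were lowest in BLM+HBO 1, next lowest in BLM+HBO 3, and BLM+HBO 2 was the highest of the treated mice for each.

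Markers of several cell types differed between the groups as well, and their part in these results was not tested. Of all tested genes, 2.89% passed both thresholds as lower and 3.40% as higher, and 8.77% did not overlap between the groups. The marker lists were chosen with earlier results of these data known, so their counts are a description. Of 11 fibroblast markers, 6 passed both thresholds as lower (among them Col1a1 at -1.20 and Lum at -1.08) and 1, Tcf21, as higher at 0.70, and their summed level was 6737 to 10850 CPM in BLM and 2530, 7181 and 4020 CPM in BLM+HBO 1 to 3. The order of the treated mice was the same as for Igf1. Of 10 macrophage and monocyte markers, 5 passed as lower (Adgre1, Mrc1, C1qa, C1qb and C1qc, from -1.11 to -0.65), while their sum overlapped (6668 to 7508 and 6660 to 8828 CPM). Most of this sum was Lyz2, at 5408 ± 726.6 CPM in BLM (SD, n = 4) and 6575 ± 1348 CPM in BLM+HBO (SD, n = 3), and the other 9 markers summed to 1476 to 2303 CPM in BLM and 910 to 1461 CPM in BLM+HBO, which did not overlap. Lyz2 was set apart after its values were seen. For 6 markers of profibrotic macrophages, 2 passed as lower, Spp1 at -1.42 and Trem2 at -0.73, and the sum of all 6 did not overlap (4833 to 5883 and 1558 to 4526 CPM). In each BLM mouse most of this sum was Spp1, whose own level did not overlap (3820 to 4952 and 702.8 to 3054 CPM). Mmp12 at 0.51, Gpnmb at -0.41, Fabp5 at -0.068 and Cd9 at -0.056 did not pass the test. The non-overlap of the sum therefore describes Spp1 more than the list.

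The remaining marker lists, to be read beside the same shares of all tested genes, showed the following. Of 7 alveolar macrophage markers 3 passed both thresholds as lower, of 6 mesothelial markers 2, of 6 smooth muscle markers 1 and of 4 tested adipocyte markers 1, all lower. The adipocyte marker was Fabp4, which is also 1 of the 3 alveolar macrophage markers. Log2 fold changes were positive in 4 of the 7 alveolar macrophage markers (median 0.032) and in 3 of the 4 adipocyte markers (median 0.47). The mesothelial and smooth muscle medians were -0.61 and -0.37. Of 8 alveolar type 2 markers 2 passed both thresholds as higher, and all 8 had positive log2 fold changes (median 0.43). Of the 8 AT1 markers, cells in which Igfbp2 is known, none passed both thresholds, with sums of 4802 to 6492 CPM in BLM and 5957 to 6580 CPM in BLM+HBO. None of 8 endothelial markers passed them, with sums of 3078 to 3871 and 3348 to 3852 CPM, and Igfbp7 is known in vessels. Of 8 heart muscle markers 7 passed both thresholds as higher, and all 8 had positive log2 fold changes. Their sums were 59.6 to 170 CPM in BLM and 617, 496 and 149 CPM in BLM+HBO 1 to 3. No gene of these lists was without reads.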

How the data were processed

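The deposited values were raw read counts per gene, which the authors made from lung RNA libraries (NEBNext Ultra, paired-end NovaSeq reads) by mapping to GRCm38 with Hisat2 and counting with featureCounts at default settings (both 2.2.0 per the submitters' processing notes). The study's methods give another version of featureCounts, and which was used was not settled here. At these settings strand is ignored, and multi-mapped reads and those on more than 1 gene are not counted. The annotation release is not given in the sources used here. Symbols came from GENCODE vM21 (55141 of 55401 genes, 54349 in the same version), and promoter windows from RefSeq (GRCm38.p6).

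Low genes were removed by filterByExpr (10 reads as its minimum count, 15 as its total), and the rest were scaled by TMM and tested with the quasi-likelihood test of edgeR 4.0.16 (R 4.3.3), fitted over all 17465 genes and 7 mice with BLM as the reference. The common biological coefficient of variation was 0.222, and P was adjusted by Benjamini-Hochberg over all tested genes. Log2 CPM used a prior count of 2, and TPM used the deposited lengths. The scripts were tested on simulated data. The labels call the mice separate samples and name no shared litter or cage.

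The alternatives were DESeq2 1.42.0 (the tool of the study's methods), limma-trend 3.58.1, RLE and upper-quartile factors, no filter, a replicate block, the robust option of the fit, a filter that asks for 1 CPM in 3 mice, each mouse left out in turn and, for levels, CPM per kilobase. The text names the 9 members, the genes of the pathway and marker lists, and the 5 genes most like Igf1, which was also the member with the smallest P. The members and lists were chosen with earlier results of these data known.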

Additional observations from a re-analysis of the deposited data

Results flagged for a closer look

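Of 34 sets of values of the 4 BLM mice examined (tested members, pathway genes with an unadjusted P below 0.05, ratios and the total count), 1 had a mouse far from the others. BLM 4 had 19002242 counted reads and the rest of its group had 18436336 to 18452895, a gap of 0.971 of the group's range, above Dixon's 95% limit. Chance gives about 1 such group in 20. Groups of 3 mice were not examined in this way.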

How the results depend on the processing

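The replicate block, with the label's replicate number as a factor, raised the number of members past both thresholds from 2 to 5 (Igf1, Igfbp2, Igfbp3, Igfbp4 and Igfbp7, none at adjusted P below 0.05), where 7.20% of all tested genes passed. Only BLM has a mouse numbered 4, so BLM 4 does not enter the group contrast of this fit. Simply leaving out BLM 4 gave 4 members, where 7.08% of all tested genes passed. No pairing by number was seen, since the deviations of same-numbered mice correlated at -0.0080, -0.066 and 0.16. Those of differently numbered mice correlated between -0.18 and 0.17. With so few mice, these values cannot exclude pairing. Without a filter on low counts, 1 member, Igf1, had an adjusted P below 0.05 (0.0252) instead of 0, where 1.18% of all genes had. Leaving out each mouse gave 0 to 4 members past both thresholds, 0 to 2 at adjusted P below 0.05, 0 to 4 at unadjusted P below 0.05, and 2 to 9 other pathway genes past both thresholds (6 with all mice). Of all tested genes, 3.7% to 10.7% passed both thresholds in these fits, 0% to 1.49% adjusted P and 5.7% to 15.9% unadjusted P. The sign reversed for Igfbp5 without BLM+HBO 3 (0.097, range over the mice left out -0.30 to 0.097) and for Igfbp6 without BLM 3 (0.19) or BLM+HBO 2 (0.074, range -0.15 to 0.19). Igfbp2 passed at unadjusted P without a filter (0.43, P 0.0457) and with the replicate block (0.61, P 0.0240). Of the members' fold changes under these alternatives, 99 kept their sign and their side of the unadjusted P limit, 16 lost the limit, each with a mouse left out, 2 passed it and 3 reversed. The order by level per length was the same in CPM per kilobase. The causes of these differences were not tested. With 4 and 3 mice and a coefficient of variation of 0.222, differences such as that of Igfbp2 had intervals that held both no change and a change of over 1.5-fold. Counts of Igf2 were too few for a test at this depth.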
